A study of Mus musculus with 6 samples.

Results

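The genes described here are 10 transcription regulators that pattern the endoderm of the embryonic pharynx: Nkx2-1, Nkx2-3, Nkx2-6, Pax1, Pax8, Pax9, Ripply3, Foxe1, Hhex and Gcm2. They were taken by name, through the RefSeq accession of each array probe. All 10 were found, on 11 of the 39429 probes of the array, and all 10 belong to the 21809 genes tested. Pax9 had 2 probes and the others 1 each. Expression was measured on 6 Agilent single-colour arrays of mouse hearts at embryonic day 9.5. The dissected piece held the heart tube together with the pharyngeal mesoderm and endoderm lying under it, and the share of pharyngeal endoderm in each pool was not measured. There were 3 pools from wild-type embryos and 3 from Arid3b-null embryos, each of 4 embryos, and the labels give no strain, allele or sex. Arid3b belongs to the ARID family of transcription regulators, which contact AT-rich DNA. In such bulk samples, fewer cells of a type and less RNA per cell cannot be told apart. Nothing beyond the pool numbers says whether the pools of a group came from separate litters, so the p-values measure the spread between these pools.

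The pharyngeal endoderm lines the foregut behind the mouth and bulges outward as pouches between the arches. The pouches later give the thymus and the parathyroid glands, while a bud in the floor of the pharynx gives the thyroid. Pax1, Pax9, Nkx2-3, Nkx2-6, Ripply3 and Gcm2 mark pouch endoderm in overlapping domains, and Nkx2-1, Pax8, Foxe1 and Hhex together mark the thyroid bud. Several of them also work elsewhere, such as Nkx2-1 in the lung bud and ventral forebrain, Pax8 in the kidney and ear, Pax1 and Pax9 in the sclerotome, and Hhex in liver, blood vessels and blood progenitors.

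Between 27136 and 31039 of 43020 non-control spots per array were well above background, fewest in null pool 3 and most in wild-type pool 3. Levels below are log2 signal minus the 75th percentile of the array, and they compare pools for a probe, not one gene with another. Changes are null minus wild type with the moderated standard error (SE) of limma, and a gene passed the test at an adjusted p under 0.05 over all genes. Arid3b read 2.91, 3.4 and 3.69 in wild-type pools 1, 2 and 3 and 1.08, 0.52 and 0.45 in the null pools, a fall of 6.27-fold (adjusted p = 0.00194). Wild-type and null pools that share a number also shared a slide. On all 3 slides the genotypes occupied the same 2 places, so place and genotype cannot be told apart. The dissected tissue was heart by its markers, since all 14 cardiomyocyte genes listed were measured, with the troponin Tnnt2 at 6.53 ± 0.04 (wild type) and 6.45 ± 0.07 (null) and the atrial light chain Myl7 at 6.71 ± 0.11 and 6.63 ± 0.30 (SD, n = 3 per group).

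The 10 genes did not move as one block. Nkx2-6, Ripply3 and Nkx2-1 fell in the null hearts, Pax8 rose, and the other 6 did not pass the test. Over all genes tested, 3.8% fell and 6.63% rose, 10.4% in all. The wild-type and null pools did not overlap for 6 of the 10, namely the 4 called genes with Hhex and Pax1, where this held for 32.9% of all genes. The median change of the 10 was -0.29 and that of all genes 0.03. In a fit with slide blocked 0 of the 10 passed, against 3.42% of all genes, so each of the 4 calls depends on leaving the slide out of the fit. The estimated changes are the same in both.

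**Figure D1:**
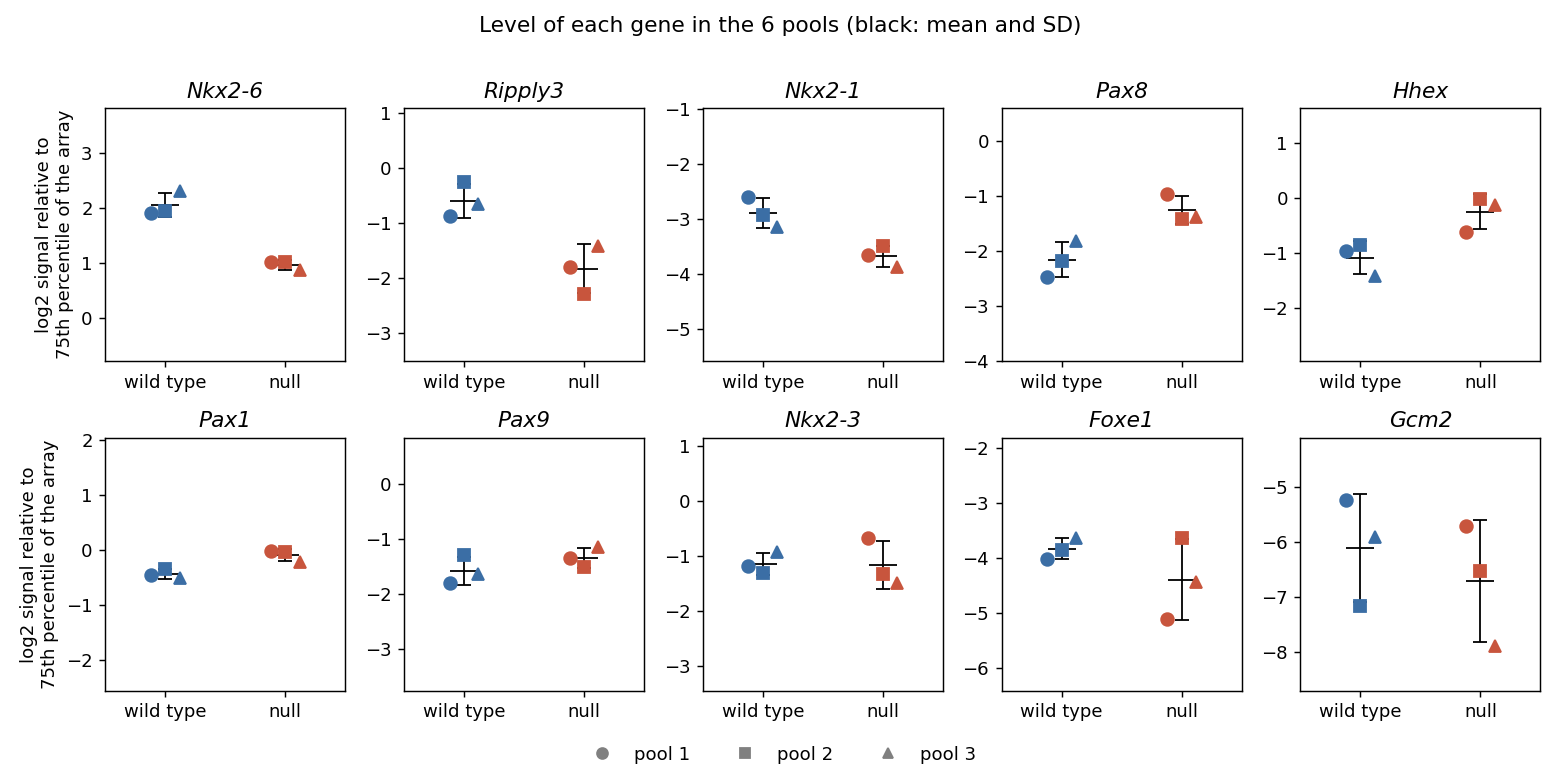
Level of each of the 10 genes in the 6 pools, as log2 signal relative to the array's 75th percentile, with every panel spanning the same range of log2 units. Symbols mark the pool number, and black bars the mean and SD of 3 pools. The groups are apart for Nkx2-6, Ripply3, Nkx2-1, Pax8, Hhex and Pax1 and overlap for the other 4.

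Nkx2-6, an NK2-class homeodomain factor of the caudal pouches and of the outflow and inflow parts of the heart tube, gave the clearest difference of the 10 by its adjusted p. It read 1.9, 1.95 and 2.31 in wild-type pools 1, 2 and 3 and 1.02, 1.02 and 0.86 in the null pools. The lowest wild-type pool thus lay well above the highest null pool, and the 3 null pools were close together (SD 0.10). The gene fell 2.12-fold (log2 -1.09, SE 0.17, 95% interval -1.49 to -0.68, adjusted p = 0.0104). Within slides 1, 2 and 3 the null pool differed from its neighbour by -0.88, -0.93 and -1.45. Nkx2-6 passed with any 1 of the 6 pools left out, but once slide was blocked it did not (adjusted p = 0.0664). Its scanner signal ran from 941 to 5660 and was well above background on all 6 arrays.

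Ripply3, a small adaptor protein that brings Groucho-type corepressors to T-box factors and limits the activity of Tbx1, had the largest fitted fall of the 10. It read -0.87, -0.26 and -0.65 in the wild-type pools and -1.79, -2.29 and -1.41 in the null pools. The groups did not overlap, but the null pools were spread more widely than those of Nkx2-6. Ripply3 fell 2.36-fold (log2 -1.24, SE 0.27, 95% interval -1.86 to -0.62, adjusted p = 0.0294). Slide 2 carried the largest difference, -2.03, against -0.93 and -0.76 on slides 1 and 3. Leaving out wild-type pool 2 ended the call (adjusted p = 0.106), as did wild-type pool 3 (0.0822), either of the first 2 null pools (0.0583 and 0.0847) or blocking on slide (0.0813). Tbx1, the T-box factor of pharyngeal endoderm and mesoderm with which Ripply3 interacts, read 2.88, 3.31 and 3.11 in wild-type and 3.31, 3.09 and 3.81 in null pools, and its change of 0.30 (SE 0.23, adjusted p = 0.444) did not pass.

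The 4 genes of the thyroid bud went different ways. Nkx2-1, a homeodomain factor needed for thyroid and lung, was printed in 10 copies on each array, whose SD within an array, a technical spread only, was between 0.05 and 0.14. It read -2.61, -2.93 and -3.15 in the wild-type pools and -3.66, -3.5 and -3.88 in the null pools. All 3 null pools lay below all wild-type pools. The fall was 1.73-fold (log2 -0.79, SE 0.20, adjusted p = 0.0475), just inside the threshold. It was dim, with a scanner signal of 99.8 to 129 in wild-type and 35.2 to 56.5 in null pools. The call did not hold without any 1 of the 6 pools (adjusted p from 0.0611 to 0.145), when slide was blocked (0.148) or with normexp background correction, where the change shrank to -0.24 (adjusted p = 0.336).

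Pax8, the paired-box factor that switches on thyroid hormone genes in the adult gland, rose and passed the test. None of the other 9 passed as a rise. Hhex (log2 0.83, adjusted p = 0.0635) and Pax1 (log2 0.35, adjusted p = 0.185) also lay higher in every null pool. Pax8 read -2.47, -2.19 and -1.83 in the wild-type pools and -0.96, -1.42 and -1.38 in the null pools. Every null pool exceeded every wild-type pool, and the difference was largest on slide 1, at 1.51, against 0.77 and 0.46 on slides 2 and 3. The rise was 1.88-fold (log2 0.91, SE 0.22, 95% interval 0.40 to 1.43, adjusted p = 0.0424). It still passed without wild-type pool 3 (adjusted p = 0.0481), but not without any of the other 5 pools (0.0906 to 0.133), nor when slide was blocked (0.146) or in the authors' value table (0.0519).

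Hhex, a homeobox gene of the foregut floor, thyroid and liver buds and of early blood vessels, lay higher in every null pool but missed the threshold. Its levels were -0.97, -0.86 and -1.42 in wild-type pools 1, 2 and 3 and -0.61, -0.01 and -0.13 in the null pools. Null pool 1 was nearest to the wild-type pools, and the change was 0.83 (SE 0.23, 95% interval 0.29 to 1.37, adjusted p = 0.0635). Without null pool 1 it passed (log2 1.01, adjusted p = 0.0423), as it did with normexp background correction (0.77, adjusted p = 0.0277). Foxe1, a forkhead factor that thyroid precursors need to move from the pharynx floor, read -4.01, -3.86 and -3.63 in wild-type and -5.1, -3.64 and -4.43 in null pools. Null pool 2 lay within the wild-type range, null pools 1 and 3 below it, and the change of -0.56 (SE 0.35, 95% interval -1.37 to 0.26) did not pass (adjusted p = 0.356). With a signal of 20.8 to 92.3 Foxe1 is near the low end of what the arrays measure. With normexp the sign turned (0.04), though the change stayed below the median of all genes there (0.16).

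The paired-box genes Pax1 and Pax9, close relatives that act together in pouches and sclerotome, gave small differences. Pax1 was also printed in 10 copies, with an SD within an array of 0.03 to 0.06. It read -0.45, -0.34 and -0.51 in wild-type and -0.01, -0.03 and -0.21 in null pools. All null pools lay above all wild-type pools, with a change of 0.35 (SE 0.15, 95% interval 0.00 to 0.70) that did not pass (adjusted p = 0.185). Pax9 read -1.8, -1.29 and -1.64 in wild-type and -1.35, -1.51 and -1.15 in null pools on its brighter probe, with overlapping groups. Its change was 0.24 (SE 0.19, adjusted p = 0.48), and that on the dimmer probe 0.36 (SE 0.24, adjusted p = 0.375 over all probes), so both probes pointed the same way and neither passed.

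Nkx2-3, an NK2-class factor of pharyngeal floor, gut mesenchyme and spleen, had the smallest fitted change of the 10. It read -1.18, -1.31 and -0.92 in wild-type and -0.67, -1.32 and -1.49 in null pools. The null pools surrounded the wild-type range, the change was -0.02 (SE 0.24, 95% interval -0.59 to 0.55, adjusted p = 0.974), and the slides gave 0.51, 0 and -0.56. Gcm2, the gene that specifies parathyroid cells in the caudal pouches, was at the detection limit. It was well above background in wild-type pools 1 and 3 and in null pool 1 only, with a signal of 2.19 to 19.2 over the 6 pools. Its change of -0.60 had a 95% interval from -2.10 to 0.90 (adjusted p = 0.60), which allows a change of more than 2 units down as well as none.

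**Figure D2:**
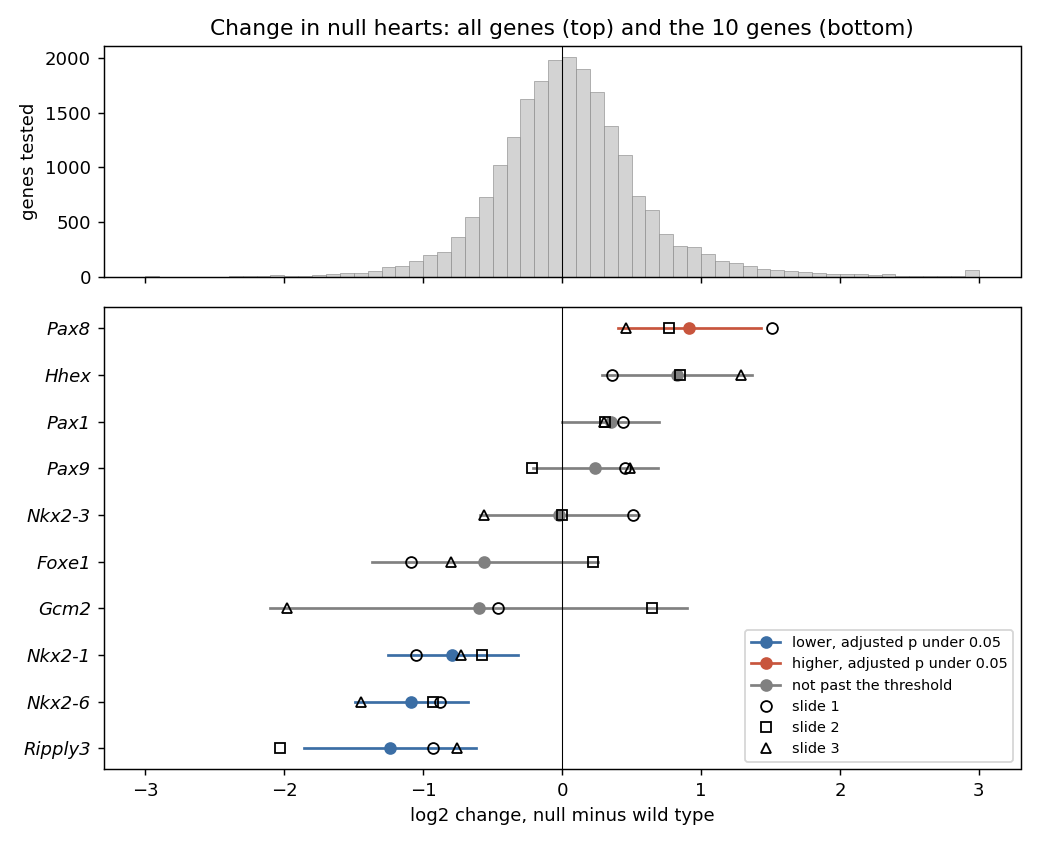
Top, number of genes tested by log2 change (null minus wild type, bins of 0.1, with changes beyond 3 either way gathered in the end bins). Bottom, the change of each of the 10 genes with its 95% interval, coloured where the adjusted p is under 0.05, and open symbols for the difference within each slide; the slides agree in sign for Pax8, Hhex, Pax1, Nkx2-1, Nkx2-6 and Ripply3.

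Of the 10 genes, 7 had a promoter in the RefSeq table used (assembly GRCm38.p6), which gives 250 bases before the gene's start and 50 after it. Nkx2-6, Ripply3 and Foxe1 were not among them. Each was searched on both strands for ATTAAA, a hexamer catalogued for the ARID3 proteins to which Arid3b belongs, for CAAGTG, a core bound by NK2 homeodomains, for AGGTGTGA, a T-box half-site, and for ACGTG, the core of hypoxia response elements. In the 7 promoters no match overlapped a match to another word. Of all promoters, 13.9%, 13.6%, 1.28% and 19.6% of the 32851 in the table held them. The promoters of Nkx2-1, which fell, and Pax8, which rose, are shown because both genes were called, and that of Pax9, which did not pass, because it alone of the 7 held the ARID3 hexamer. Capitals mark a match to any of the 4 words.
Nkx2-1, chr12:56536859-56537158, minus strand: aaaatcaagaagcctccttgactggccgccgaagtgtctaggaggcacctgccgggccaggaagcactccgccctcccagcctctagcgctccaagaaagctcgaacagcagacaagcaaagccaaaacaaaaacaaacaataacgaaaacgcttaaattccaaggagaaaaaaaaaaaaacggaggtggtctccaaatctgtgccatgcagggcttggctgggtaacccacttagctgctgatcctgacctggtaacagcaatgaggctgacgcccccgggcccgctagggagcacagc
Pax8, chr2:24475550-24475849, minus strand: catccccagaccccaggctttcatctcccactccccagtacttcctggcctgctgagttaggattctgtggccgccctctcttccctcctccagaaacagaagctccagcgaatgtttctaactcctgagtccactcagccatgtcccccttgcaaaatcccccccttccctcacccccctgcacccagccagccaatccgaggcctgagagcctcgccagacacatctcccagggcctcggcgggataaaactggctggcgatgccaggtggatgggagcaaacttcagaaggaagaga
Pax9, chr12:56695221-56695520, plus strand: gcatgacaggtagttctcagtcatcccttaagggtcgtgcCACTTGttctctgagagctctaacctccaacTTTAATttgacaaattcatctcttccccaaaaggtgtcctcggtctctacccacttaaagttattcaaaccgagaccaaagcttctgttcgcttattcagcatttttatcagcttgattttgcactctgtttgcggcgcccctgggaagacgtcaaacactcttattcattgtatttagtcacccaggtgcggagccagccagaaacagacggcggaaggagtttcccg

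Neither the Nkx2-1 nor the Pax8 window held any of the 4 words. In Pax9 the ARID3 hexamer begins 179 bases and the NK2 core 210 bases before the start. The Pax1 window held ACGTG at 2 places and that of Nkx2-3 at 1, Gcm2 held 1 NK2 core, Hhex held none, and the T-box half-site was in none of the 7. A match in such a short word is a description of the sequence only, and a missing match says nothing of binding elsewhere.

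Several of the 10 genes stand beside each other or beside relatives in the genome, as the order of protein-coding genes in GRCm38.p6 shows. Nkx2-1, Nkx2-9 and Pax9 follow one another, flanked by Mbip and Slc25a21. In this run of 5 genes Nkx2-1 fell, while Mbip, which encodes a kinase-binding protein (0.21, SE 0.18, adjusted p = 0.501), Pax9, and the mitochondrial carrier Slc25a21 (0.63, SE 0.37, adjusted p = 0.329) did not pass, and Nkx2-9 was above background on 1 array. Pax1 lies between Nkx2-2 and Foxa2, with Nkx2-4 beyond Nkx2-2, and none of these passed. Nkx2-6 lies directly beside Stc1. Stc1, which encodes the secreted hormone stanniocalcin, read -6.32, -5.82 and -6.12 in wild-type and -3.05, -3.41 and -3.29 in null pools, and rose 7.14-fold (log2 2.84, SE 0.19, adjusted p = 0.000522, and 0.00265 when slide was blocked). It was well above background in 2 wild-type and 3 null pools. The wild-type signal, 9.07 to 16.5, was near the detection limit, so the size of the rise is uncertain. Of these adjacent genes, Stc1 thus rose where Nkx2-6 fell.

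Relatives of the 10 were looked up for comparison. Of 15 paralogues, 11 could be tested and 0 passed, with a median of 0.07. Nkx2-5, the cardiac NK2 factor, read 4.02 ± 0.09 in wild-type and 4.09 ± 0.14 in null pools (SD, n = 3), a change of 0.07 (SE 0.16, 95% interval -0.29 to 0.43, adjusted p = 0.824). The difference from the change of Nkx2-6 was not tested. The largest fitted change was that of Gcm1, the placental relative of Gcm2, at 1.89 (SE 0.51, adjusted p = 0.0688), fitted without null pool 1, whose spot was an outlier. Pax3, a neural crest gene, gave -0.53 (SE 0.24, adjusted p = 0.202). The Ripply relatives of the somites gave 0.13 (SE 0.20) for Ripply2 and -0.09 (SE 0.28) for Ripply1, and neither passed. The remaining tested paralogues ran from -0.78 for Nkx2-4 to 0.25 for Nkx2-2, and Nkx2-9, Pax4, Pax5 and Pax6 were too dim to test.

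Around these genes, the pharyngeal pouch network was nearly flat. Of 21 tested genes out of 23 listed, 1 rose, 0 fell and 20 did not pass, with a median of 0.12. The one that rose was Sox3, a SOX-family factor of neural and pharyngeal epithelium, by 1.01 (SE 0.22, adjusted p = 0.0333), from -0.64 ± 0.41 to 0.36 ± 0.07 (SD, n = 3). Its call ended when slide was blocked (adjusted p = 0.0902), and the count of this list was 0 without wild-type pool 1 or 3 and without any of the null pools. Next came the signal Fgf8 at 0.90 (SE 0.25, adjusted p = 0.0668), which read 0.22, 0.88 and 0.61 in wild-type and 1.63, 1.04 and 1.74 in null pools. The pouch regulators Eya1 (0.15, SE 0.25), Hoxa3 (-0.51, SE 0.22) and Gata3 (0.01, SE 0.20) did not pass. Foxn1 of the thymus and Pth of the parathyroid, genes of the finished organs, were above background on none of the 6 arrays.

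General markers of endoderm and epithelium were measured in all pools, Of 22 tested genes out of 23, 3 rose, 2 fell and 17 did not pass, with a median of -0.05. The adhesion genes Epcam (-0.03, SE 0.40) and Cdh1 (0.27, SE 0.18) and the forkhead gene Foxa2 (-0.54, SE 0.22, adjusted p = 0.16) did not pass. The hedgehog ligand Ihh fell by 1.60 log2 units (SE 0.30, adjusted p = 0.0195) and the gut peptide gene Pyy by 0.74 (SE 0.19, adjusted p = 0.0475, but 0.192 when slide was blocked). Shh, the hedgehog ligand of pharyngeal endoderm, read -3.51, -2.83 and -3.21 in wild-type and -3.81, -4.98 and -5.49 in null pools, a change of -1.58 (SE 0.42, adjusted p = 0.0546) that missed the threshold. Null pool 1 was close to the wild-type range for Shh, and null pools 2 and 3 were lower. Those that rose were the keratins Krt19 (3.03, SE 0.19, adjusted p = 0.000403) and Krt18 (1.09, SE 0.16, adjusted p = 0.00865, but 0.0641 when slide was blocked), found in many simple epithelia, and Sox17 (1.22, SE 0.16, adjusted p = 0.00589), a gene of endoderm and endothelium. The summed linear level of the list was 61.2 to 66.1 in wild-type and 141 to 156 in null pools, in units of the array's 75th percentile, but without its 3 keratins it was 16.9 to 19.7 and 16.9 to 20.1. The fallen genes of this list numbered 0 when any of pools 2 and 3 of either genotype was dropped, 1 without wild-type pool 1 or when slide was blocked, and 4 without null pool 1.

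**Figure D3:**
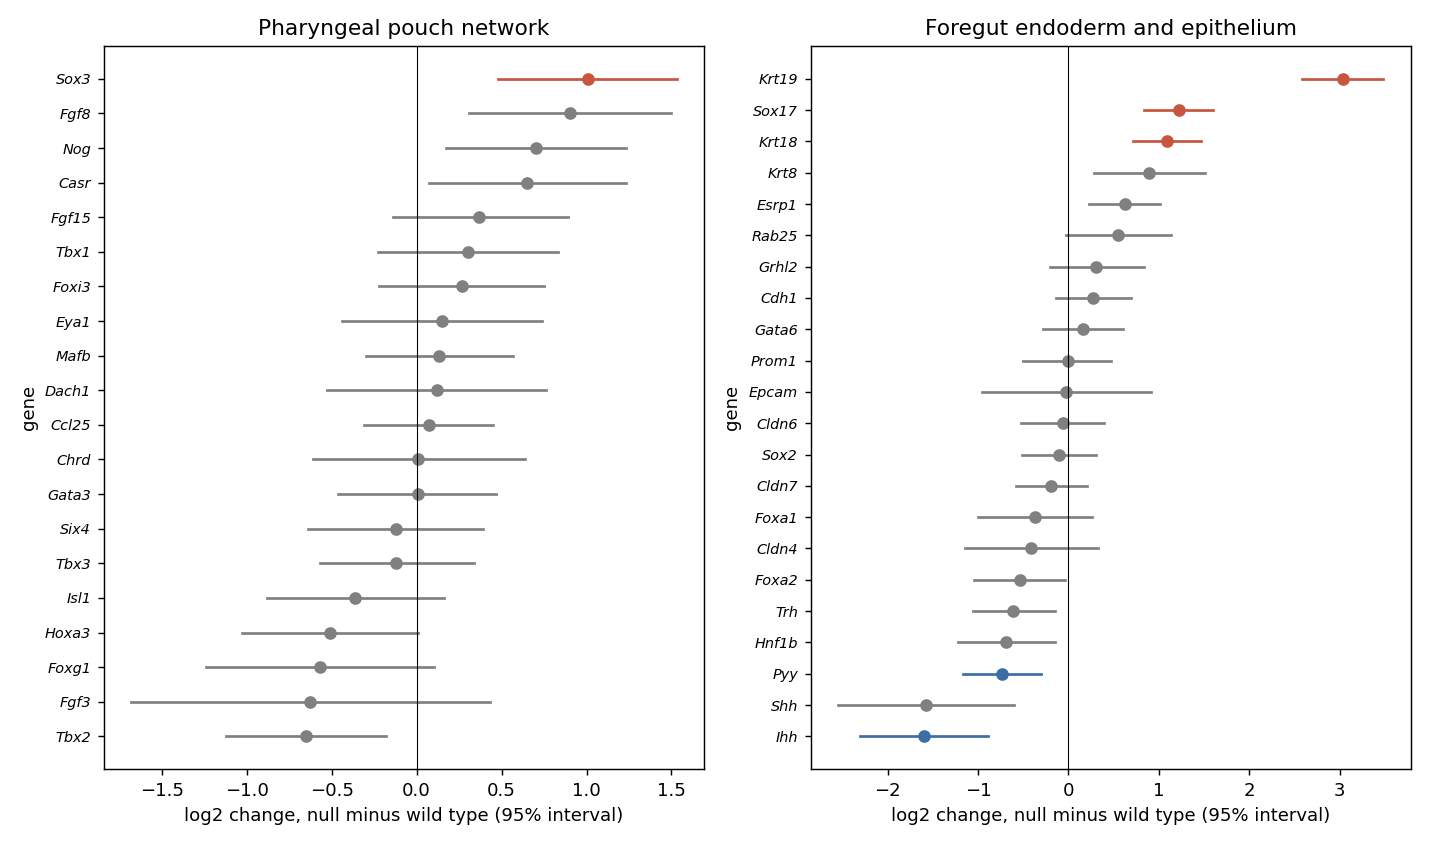
Log2 change (null minus wild type) with its 95% interval for 20 of the 21 tested genes of the pharyngeal pouch network (left) and all 22 of the foregut endoderm and epithelium list (right), coloured where the adjusted p is under 0.05. Most intervals of the pouch network include 0, and in the endoderm list Krt19 at 3.03 and Ihh at -1.60 mark the ends.

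Other places where the 10 genes are active were followed with marker lists. Thyroid function genes were nearly undetected: of 8 listed, only Tg could be tested (-0.49, SE 0.17, adjusted p = 0.123), and 5 were above background on no array, among them Tshr and Slc5a5. In the lung bud list 0 of 8 passed, the smallest p values being those of the growth factor Fgf10 (0.59, SE 0.20) and Wnt2 (-0.61, SE 0.22), with a median of 0.10. The signal gene Wnt2b had the largest fitted change of this list (-1.43, SE 0.52, adjusted p = 0.129) and passed when slide was blocked (0.0421). Wnt2b was well above background in all 3 wild-type pools and in 0 null pools. For a cautious fold, each null array was set at the dimmest signal well above background there or at the probe's own, whichever was higher. On that setting the wild-type mean was 1.93-fold higher, a value that takes no account of the spread between pools. Wnt2b read -5.95, -4.5 and -6.51 in wild-type and -7.02, -6.56 and -7.67 in null pools. The lowest wild-type pool was thus close to the highest null pool, and a smaller difference is not excluded. The lung gene Sftpc was above background on no array. Of the ventral forebrain list 5 of 8 could be tested: Otx2, a head and forebrain homeobox gene, rose by 2.47 (SE 0.26, adjusted p = 0.00261), Dlx1 fell by 1.13 (SE 0.19, adjusted p = 0.0132, but 0.0644 when slide was blocked), and Six3 and Rax were above background on no array. In the nephric and otic list, which bears on Pax8, 0 of 6 tested genes passed, with a median of -0.06, and the values of smallest p were Spry2 at 0.62 (SE 0.20) and Dlx5 at -0.26 (SE 0.19). Among sclerotome and somite genes, which bear on Pax1 and Pax9, 0 of 8 passed, with a median of -0.01, led by Foxc2 (0.59, SE 0.18). Among 7 gut mesenchyme genes, which bear on Nkx2-3, 0 passed, with a median of -0.20, and the forkhead gene Foxf2 came nearest (-1.51, SE 0.39, adjusted p = 0.0514), followed by Hlx (0.75, SE 0.24).

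For Hhex, which blood vessels and liver also use, the endothelial and liver lists matter. No endothelial or endocardial gene of 10 passed, with a median of 0.22. The vessel receptor Flt1 gave 0.81 (SE 0.22, adjusted p = 0.0574), its relative Kdr 0.38 (SE 0.20) and the junction gene Pecam1 0.38 (SE 0.29). Of the 10 changes 7 were positive and 3 negative, the latter led by Tek (-0.68, SE 0.43). The summed linear level of this list, to which bright genes contribute most, was 15 to 15.5 in wild-type and 18.5 to 20.9 in null pools, without overlap. Its mean log2 level did overlap, at -0.18, 0.04 and 0.13 in wild-type and 0.34, 0.09 and 0.02 in null pools. For 2 of the 10 genes the groups did not overlap, where this held for 32.9% of all genes. In the liver and visceral endoderm list 3 of 11 tested genes rose and 0 fell, with a median of 0.99: the retinol carrier Rbp4 (2.37, SE 0.19), the nuclear receptor Hnf4a (2.27, SE 0.25) and alpha-fetoprotein Afp (3.56, SE 0.67). Hnf4a was well above background in 2 wild-type and 3 null pools, with a dim wild-type signal of 7.41 to 10.4. Blocking on slide added Apoa1, an apolipoprotein gene, at 1.72 (adjusted p = 0.0461, against 0.182 without the block). Apoa1 was well above background in 1 wild-type and 3 null pools, and null pool 3 (-3.77) stood above null pools 1 and 2 (-6.47 and -6.48). The summed level of the liver list was 1.9 to 2.54 in wild-type and 5.16 to 6.3 in null pools, while the liver gene Alb was above background on no array. Hhex, Pax8 and this list thus lay higher in the same 3 pools, and the part of liver or vessel cells in the values of Hhex and Pax8 was not tested.

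Surface ectoderm, which bears on Foxe1, was mixed: of 7 genes, the keratin Krt5 fell by 1.56 (SE 0.18, adjusted p = 0.00342), the ectoderm and neural crest factor Tfap2a rose by 0.91 (SE 0.17, adjusted p = 0.0206, but 0.108 when slide was blocked), and 5 did not pass, with a median of 0.28. Of the 14 cardiomyocyte genes, Nppa, a natriuretic peptide, rose by 1.27 (SE 0.18, adjusted p = 0.00765) and 13 did not pass, with a median of -0.04. Nkx2-6, which heart tube cells also use, thus fell in pools whose summed cardiomyocyte level was 1940 to 2290 in wild type and 2040 to 2570 in the null, ranges that overlap. Null pool 3 stood apart in trophoblast genes, with a level summed over 7 of the 8 tested genes of 31.9, against 0.669 to 0.825 in wild-type pools and 1.47 and 2.14 in null pools 1 and 2. The sum leaves out Gcm1, which has no value in null pool 1 and read 3.23, 1.7 and 3.46 in wild-type pools and 4.62 and 4.75 in null pools 2 and 3, so that including it would raise the wild-type sums many times over. The placental lactogen Prl3d1 was at -3.16 ± 0.16 in wild type (SD, n = 3) and reached -3.2, -0.97 and 4.78 in null pools 1, 2 and 3. Of 8 tested trophoblast genes 1 passed, Ascl2, a placental and stem cell factor (3.62, SE 0.19, adjusted p = 0.000291). Without null pool 3, Nkx2-6 changed by -1.03 (adjusted p = 0.0423) and Ripply3 by -1.45 (adjusted p = 0.03), both still called, while Nkx2-1 (-0.69, adjusted p = 0.145) and Pax8 (0.97, adjusted p = 0.0906) were not.

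**Figure D4:**
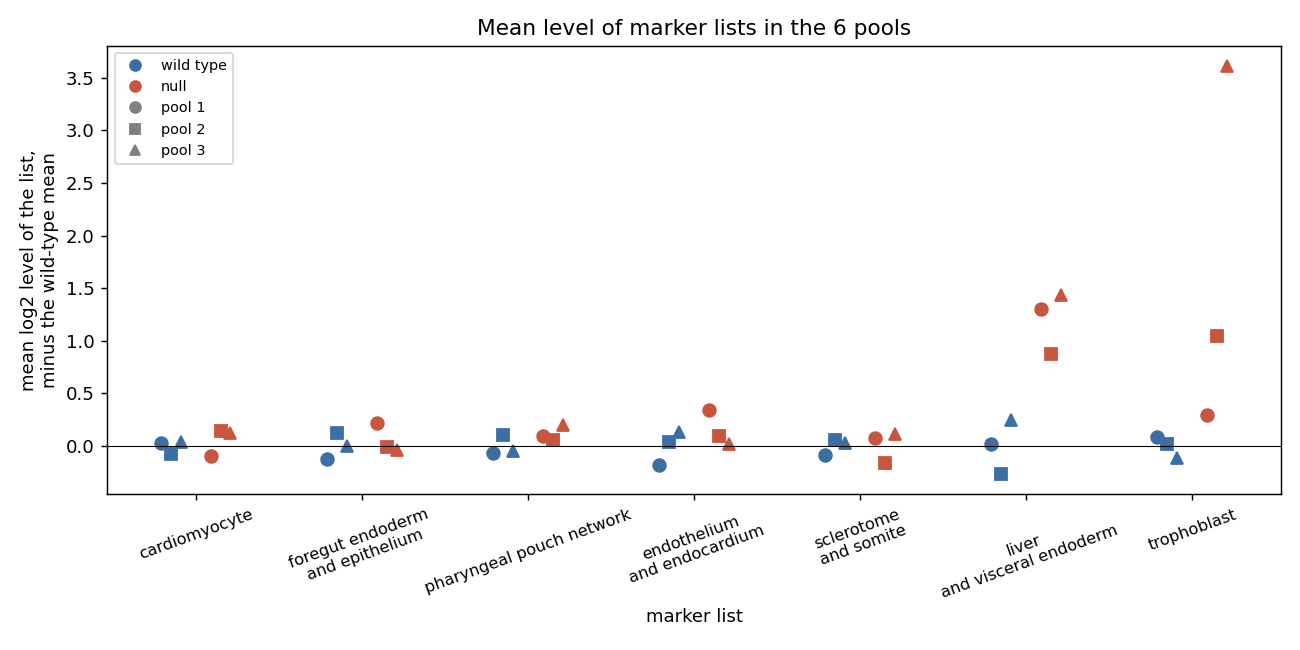
Mean log2 level of the tested genes of 7 marker lists in each pool (for trophoblast without Gcm1), minus the mean of the 3 wild-type pools. Null pool 3 stands above all others for trophoblast genes, and all 3 null pools lie above the wild-type pools for liver and visceral endoderm genes, while the endoderm, pouch and cardiomyocyte lists stay near 0.

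The calls differed in how far they held across 17 other settings. Nkx2-6 fell under each of them (-1.22 to -0.96) and passed in all but the fit with the slide as a block. Ripply3 lay between -1.59 and -0.99 and Nkx2-1 between -0.93 and -0.24. Pax8 lay between 0.75 and 1.08 and Hhex between 0.66 and 1.01, without a change of sign. Pax1 (0.22 to 0.41) and Pax9 (0.04 to 0.38) also kept theirs, while Nkx2-3, Foxe1 and Gcm2 changed sign under at least 1 setting.

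**Figure D5:**
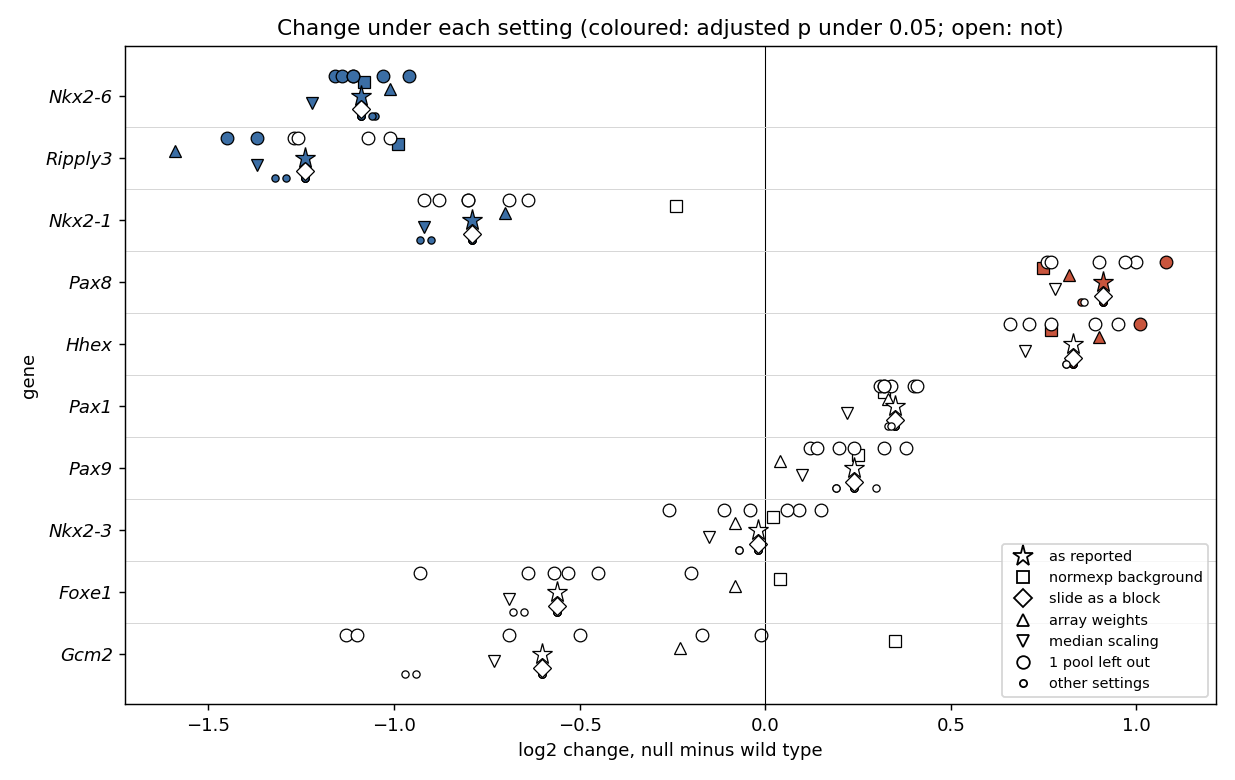
Log2 change (null minus wild type) of each gene as reported (star) and under 17 other settings, coloured where the adjusted p is under 0.05 and open where not. Nkx2-6 is coloured everywhere except where slide is blocked, and the square for normexp background correction moves Nkx2-1 to -0.24.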

How the data were processed

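Per the file headers, the deposited intensity values were written by Agilent's Feature Extraction software, version 10.7.3.1, for design 026655, scanned once, background subtracted and spatially detrended, without scaling of one array to another. The authors also deposited a table of log2 values for 24158 non-control probes, with a median of 6.77 in every column. Its Pearson correlation with the log2 scanner signal, over probes of 1 array at a time, was 0.9994 to 1, so it follows that signal closely. It is not that signal shifted by 1 constant per array, since the changes moved unequally between genes. Nkx2-1 went from -0.79 to -0.93 and Nkx2-6 from -1.09 to -1.06, where quantile normalization gave -0.90 and -1.05. How the table's values were normalized is not stated in the sources used here. The other deposited columns used were flags (well above background, saturated, outlier), per the file headers; no spot was saturated.

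Each array's log2 processed signals were shifted so that the 75th percentile of its non-control spots is 0. Outlier spots were dropped and repeat spots averaged. Probes well above background on at least 3 of 6 arrays were kept (26857 of 39429). A gene is the brightest kept probe, named through RefSeq accessions in a table of GRCm38.p6, where 26424 of the 39429 probes found a symbol. Entries without a symbol kept the array's own name and were counted as genes, so 15242 of the 21809 genes tested have a symbol. The file headers name mm9, so that table gave names, gene order and promoter sequences only. The test was limma's (version 3.58.1, R 4.3.3, lmFit, eBayes), two-sided, with Benjamini-Hochberg adjustment over 21809 genes. The scripts were tested on simulated data, where only the largest of the shifts tried was recovered. Far fewer genes were shifted there than were called in these data, which makes the adjusted threshold stricter. That recovery therefore does not give the power of the test on these arrays. Normexp used the median spot and background signals with an offset of 50. The 3 arrays per group limit the precision.

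Whether pool numbers pair the arrays was judged from how deviations from the group means correlate over genes, which gave -0.40, -0.09 and -0.41 for the same number. The numbers were therefore not used as pairs.

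The members, the 15 gene lists and the 17 alternatives were chosen with earlier results of these data known. Named were all members, their paralogues and neighbours, up to 4 called genes of each list or the 2 of smallest unadjusted p, and Arid3b, Tbx1, Foxa2, Epcam, Cdh1, Shh, Tg, Tnnt2, Myl7, Prl3d1, Afp, Pecam1 and Nkx2-5. Others were picked after their values were seen: Apoa1, Wnt2b, Tek, Eya1, Hoxa3, Gata3, Alb, Sftpc, Tshr, Slc5a5, Six3, Rax, Foxn1 and Pth. Some genes of the lists count in their totals but are not reported here by name. An exact permutation test of 3 against 3 cannot go below 0.1 and was not used.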

Additional observations from a re-analysis of the deposited data

How the results depend on the processing

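With 3 pools per group, small changes stay within the error, so a gene that did not pass is not shown to be unchanged, and dim genes (Gcm2, Foxe1, Nkx2-1) depend on the background correction. With the replicate block (slide), the 4 calls ended at unchanged estimates: Nkx2-6 -1.09 (adjusted p = 0.0664), Ripply3 -1.24 (0.0813), Nkx2-1 -0.79 (0.148) and Pax8 0.91 (0.146). With no filter on dim probes, which tests more genes, Ripply3 (-1.24, adjusted p = 0.0721), Nkx2-1 (-0.79, 0.114) and Pax8 (0.91, 0.102) ended as well. Pax8 also ended with median scaling (0.78, 0.0755), which moved the median of all genes from 0.03 to -0.11, and in the authors' value table (0.86, 0.0519). Normexp, with an offset of 50, moved the median of all genes to 0.16. It ended Nkx2-1 (-0.24, 0.336), brought in Hhex (0.77, 0.0277) and turned the sign of Nkx2-3 (0.02), Foxe1 (0.04) and Gcm2 (0.35). Relative to that median, Nkx2-3 (-0.15) and Foxe1 (-0.13) stayed negative, while Gcm2 (0.19) did not. Hhex also passed with probes above background on all arrays (0.83, 0.0481), with a trended and robust prior (0.83, 0.0416) and with array weights (0.90, 0.0138). Gcm2 has no value with probes above background on all arrays.

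With 1 pool left out, the changes ran from -1.16 to -0.96 for Nkx2-6, -1.45 to -1.01 for Ripply3, -0.92 to -0.64 for Nkx2-1, 0.76 to 1.08 for Pax8, 0.66 to 1.01 for Hhex and -0.26 to 0.15 for Nkx2-3, which turned to 0.09 without wild-type pool 3 and 0.06 and 0.15 without null pools 2 and 3. Genes called, 2276 as reported (1447 higher, 829 lower), ran from 833 to 1751, with 592 to 1173 higher and 241 to 578 lower. They were 745 with the slide as a block (542 higher, 203 lower), 1037 with no filter (754, 283), 4861 with array weights (2795, 2066), and 1105 higher and 1399 lower with median scaling.

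The pouch list's 1 riser became 0 with median scaling, no filter or the slide as a block, and 2 with normexp, a trended prior or array weights; 1 gene fell with median scaling, normexp or array weights; with 1 pool left out 0 to 1 rose and 0 fell. In the endoderm list 5 rose with normexp, a trended prior or array weights. The fallen were 4 with median scaling or the authors' table, 5 with array weights, 1 with normexp, no filter or the slide as a block, and 0 to 4 with 1 pool left out. For the other changes the cause was not tested.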
